A study of Mus musculus with 16 samples.

Results

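Expression of 5 genes from 2 growth factor systems was followed across sorted cells of young mouse fat: Csf1 and Il34, the ligands of the colony stimulating factor 1 receptor, its receptor gene Csf1r, the Kit ligand gene Kitl, and the receptor gene Kit. The 5 genes were taken by symbol from 27179 rows of a table of normalized read counts, and each symbol matched 1 row. The set was selected on a measured value, because Csf1r was high in one population without a general macrophage signal. The level of any of the 5 genes in that population is therefore given as a description, without a test.

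The study sequenced RNA of Pdgfrb+ cells isolated by flow cytometry from epididymal white adipose tissue of C57BL/6 mice at postnatal day 7. There were 4 populations with 4 libraries each, 16 in all: adipocyte precursor cells (APCs), fibro-inflammatory progenitors (FIPs), mesothelial-like cells (MLCs) and smooth muscle cells (SMCs). No treatment, transgene or mutant allele is named for any of them, and all 4 shared the strain, the age, the depot and the sort for PDGFRb, the receptor coded by Pdgfrb. Separate animals or sorts are not named for the 4 libraries of a population, so a p-value here reflects how these libraries scatter, and that scatter may be technical only.

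Macrophages and their precursors depend on the CSF1 receptor, a tyrosine kinase of the cell surface, for survival, division and differentiation. It binds CSF1, made by many stromal cells, and interleukin 34, a ligand of unrelated sequence best known from skin and brain. KIT is a related tyrosine kinase, known from haematopoietic stem cells, mast cells, melanocytes and interstitial cells of Cajal, and its ligand, stem cell factor, is made by stromal and epithelial cells. In adipose tissue, stromal CSF1 is known as a factor for resident macrophages.

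The libraries held between 9.20 and 27.5 M reads assigned to genes, with the fewest in SMCs replicate 3 and APCs replicate 4. APCs replicate 4 stood apart from the other APC libraries in the smooth muscle actin gene Acta2, at 2388 normalized counts against 156 to 221. The labelled identities were checked against marker lists. The 12 mesothelial markers summed to between 151353 and 156137 normalized counts in MLCs and to at most 19204 in any SMC library, and the sum of the 10 contractile genes was highest in SMCs, between 14476 and 19422. Single contractile genes could be higher elsewhere, with the highest mean of Mylk in APCs and those of Smtn and Myh11 in MLCs. The sum of the 8 adipocyte precursor markers was highest in APCs, between 57328 and 86321. That of the 8 FIP markers was highest in FIPs, between 592397 and 646186, with a mean of 560212 from Fn1 alone. Dpp4, on the FIP list, averaged 8805 in MLCs against 2053 in FIPs. Pdgfrb, the gene behind the sort, was lowest in MLCs, at 457 ± 28.0 normalized counts (SD, n = 4), against a mean of 2862 or more in the other 3 populations.

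Per kilobase of exon, which allows genes to be compared, Csf1 had the highest level of the 5 genes in every population and Kit the lowest. On this scale Csf1 averaged 1592 ± 132 in FIPs, 1027 ± 202 in APCs, 991 ± 198 in SMCs and 674 ± 41.1 in MLCs (SD, n = 4 for each). In MLCs the receptor gene Csf1r came next, at 383 ± 33.1 per kilobase, close to Kitl at 363 ± 6.62. In APCs and FIPs Csf1r was at 4.99 ± 1.49 and 4.70 ± 1.09 per kilobase, below the means of Il34. In APCs replicate 4 the order was the reverse, with Csf1r at 7.19 and Il34 at 2.65. Csf1 stood above Csf1r and Kitl above Kit in all 16 libraries on this scale, by very different factors. The median ratio of Csf1 to Csf1r per kilobase over 4 libraries was 333 in FIPs, 205 in APCs, 21.1 in SMCs and 1.71 in MLCs. The median ratio of Kitl to Kit varied less, from 33.5 in SMCs to 111 in FIPs. The exon lengths are merged over all annotated transcripts, so a gene whose cells use shorter transcripts is understated.

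**Figure D1:**
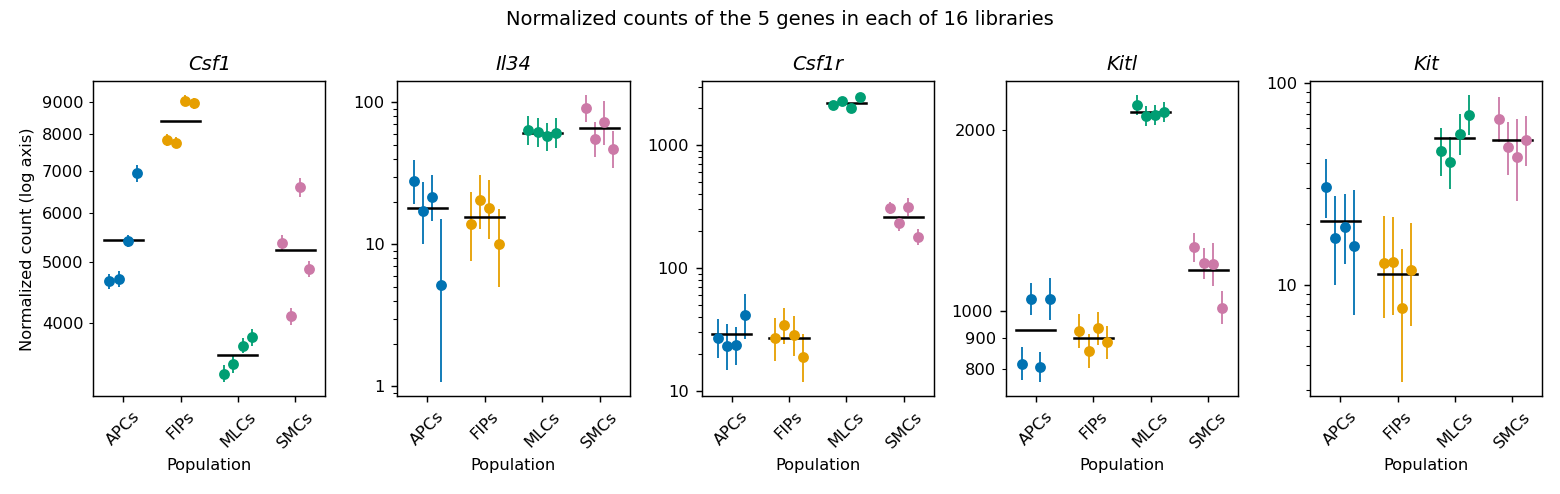
Normalized count of each gene (log axis, a separate range for each panel) in the 16 libraries, grouped by population on the horizontal axis. Points are libraries, bars are 95% Poisson intervals for counting error alone, and black lines are population means. Csf1r is at 2014 or more in all 4 MLC libraries and at most 41.5 in the APC and FIP libraries.

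Csf1, on the minus strand of chromosome 3 at chr3:107741048-107760469 (GRCm38), codes for the colony stimulating factor that many stromal cells secrete. It was abundant in all 16 libraries, from 3319 to 9052 normalized counts. The letters before its start are shown, with those of Kit further on, because these genes lie at the upper and the lower end of expression among the 5. The 250 bases before the RefSeq start of Csf1 (GRCm38.p6, minus strand, chr3:107760470-107760719) are as follows, in capitals the matches to the GC box, GGGCGG, and to the NF-kB consensus.

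Csf1: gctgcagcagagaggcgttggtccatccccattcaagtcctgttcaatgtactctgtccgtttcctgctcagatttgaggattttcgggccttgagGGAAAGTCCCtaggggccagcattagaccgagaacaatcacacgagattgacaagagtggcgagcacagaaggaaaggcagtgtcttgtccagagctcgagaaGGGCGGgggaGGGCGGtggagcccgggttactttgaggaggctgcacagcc

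The window held 2 GC boxes and 1 NF-kB match that begins 154 bases before the start. Both strands were searched. Of 32851 RefSeq windows of this length, 32.7% held a GC box and 7.25% an NF-kB match. The TATA motif, TATAAA, present in 12.4% of the windows, and the AP-1 motif, TGANTCA, present in 6.75%, were not among these letters.

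Csf1 was highest in FIPs, with 7849, 7765, 9052 and 8967 normalized counts in replicates 1 to 4. In APCs it was at 4660, 4699, 5407 and 6939, and in SMCs at 5374, 4098, 6587 and 4874. On this scale every FIP library was above every APC and every SMC library, while the APC and SMC libraries overlapped in part. In MLCs, where no test was made, the 4 libraries held 3319, 3437, 3680 and 3792, all below those of the other populations. The separation of FIPs from APCs depended on the scaling. With libraries scaled to equal totals, the lowest FIP library, at 6927, was below the highest APC library, at 7186.

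The difference of Csf1 between APCs and FIPs was -0.65 on the log2(value + 1) scale (SE 0.13, 95% interval -0.91 to -0.39, adjusted p = 0.000326 by limma). Against SMCs, FIPs were higher by 0.70 (SE 0.13, 95% interval 0.44 to 0.96, adjusted p = 0.000102 by limma). Both passed the p threshold of 0.05 but not the second condition of a call, a log2 fold change of at least 1. APCs and SMCs differed by 0.05 (95% interval -0.21 to 0.32, adjusted p = 0.734 by limma). APCs replicate 4 held the highest Csf1 value of its population, and without it the difference from FIPs was -0.77. Between APCs and FIPs it shrank to -0.40 with libraries scaled to equal totals and to -0.44 with quantile normalization. Between FIPs and SMCs it shrank to 0.48 and 0.47 under the same settings.

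Il34, coding for the other ligand of the receptor, lies on the minus strand at chr8:110741829-110805949 (GRCm38). It was low everywhere and rested on 3 to 86 reads per library. The SMC libraries held 90.5, 55.5, 72.6 and 47.0 normalized counts and the MLC libraries 63.7, 61.7, 57.5 and 60.7. The APC libraries held 27.9, 17.1, 21.4 and 5.19 and the FIP libraries 13.9, 20.3, 18.1 and 9.98. All SMC and MLC values were above all APC and FIP values, and the ranges of SMCs and MLCs overlapped. The lowest value, in APCs replicate 4, came from 3 reads, with a 95% Poisson interval of 1.07 to 15.2 that covers counting error only.

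Il34 was called lower in APCs than in SMCs, by -1.99 (SE 0.36, adjusted p = 0.000135 by limma), and lower in FIPs than in SMCs, by -2.03 (SE 0.36, adjusted p = 0.000109 by limma). Without APCs replicate 4 and SMCs replicate 3, the shallowest libraries, the first difference was -1.47 and still called. APCs and FIPs differed by 0.03, with a 95% interval of -0.73 to 0.79, so that a difference of either sign within these bounds is not excluded. Without APCs replicate 4 the difference was 0.50 and not called. Per kilobase, Csf1 exceeded Il34 by 19.3 to 38.5 times in the MLC and SMC libraries and by 62.0 to 496 times in the APC and FIP libraries.

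Csf1r, coding for the receptor, lies on the plus strand of chromosome 18 at chr18:61105572-61131139 (GRCm38). The MLC libraries held 2108, 2271, 2014 and 2449 normalized counts of Csf1r, each from at least 2516 reads. The SMC libraries held 307, 231, 316 and 180. The APC libraries held 27.0, 23.2, 23.6 and 41.5, and the FIP libraries 26.7, 34.2, 28.6 and 19.0. The MLC libraries stood above all SMC libraries, and these above all APC and FIP libraries, which overlapped. The ratio of the MLC mean to the other means was 76.7 for APCs, 81.4 for FIPs and 8.55 for SMCs. These ratios are what the gene was chosen for.

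Between the other populations, Csf1r was called lower in APCs than in SMCs, by -3.12 (SE 0.20, 95% interval -3.55 to -2.70, adjusted p = 2.2e-10 by limma). It was also called lower in FIPs than in SMCs, by -3.20 (SE 0.20, 95% interval -3.62 to -2.77, adjusted p = 1.1e-10 by limma). APCs and FIPs differed by 0.07 (95% interval -0.35 to 0.50, adjusted p = 0.810 by limma), and the sign of this small difference turned without either APCs or FIPs replicate 4.

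**Figure D2:**
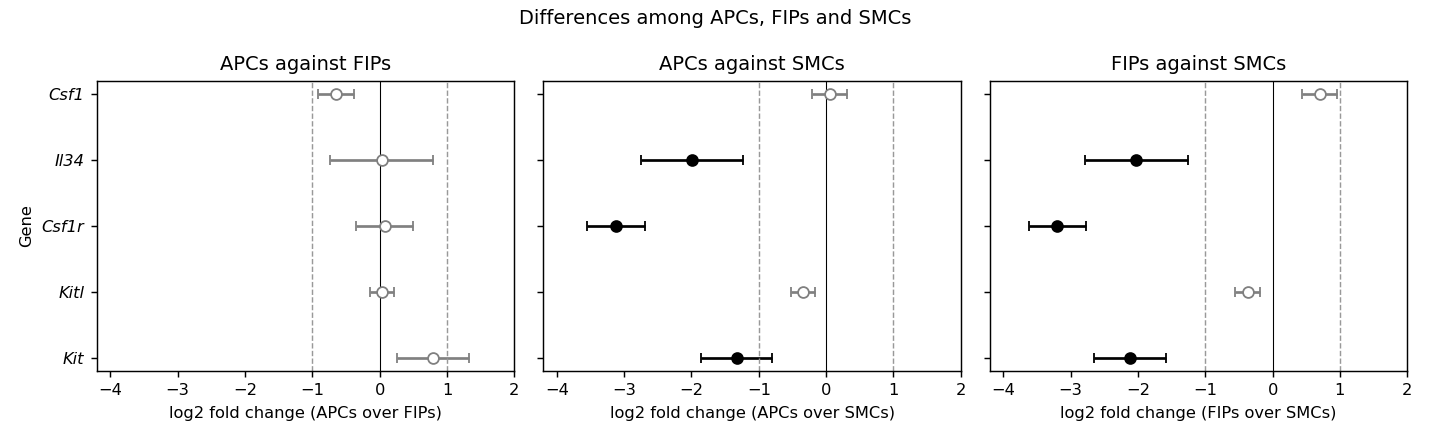
Log2 fold change of each gene, first over second population, in the 3 pairs that do not involve MLCs. Points are estimates and bars their 95% intervals, filled black where the gene was called, and dashed lines mark a log2 fold change of 1 in either direction. Csf1r, Il34 and Kit are called lower in APCs and in FIPs than in SMCs, and no gene is called between APCs and FIPs.

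A macrophage signal of the same kind was not seen in MLCs. The set was chosen with this known, so the values are a description. The 5 defining macrophage genes, Ptprc, Adgre1, Spi1, C1qa and Cx3cr1, summed to between 14.8 and 38.7 normalized counts in the MLC libraries, and none of them was above 14.7 in any of the 16 libraries. In SMCs the same sum ran from 17.1 to 51.2, in APCs from 13.1 to 20.3 and in FIPs from 13.6 to 19.8. Of the whole list of 20 macrophage genes, 14 averaged under 10 in MLCs, and Marco was at 0 in MLCs, FIPs and SMCs. The summed list was between 1416 and 1536 in MLCs, inside the range of 1375 to 2265 in APCs. Every MLC library was above the FIP libraries, at 959 to 1340, and the SMC libraries were at 1525 to 1803. Most of the sum was Cd68, a lysosomal protein gene, and Mertk, a receptor for dying cells. Cd68 averaged 391 in MLCs against 734 in APCs, 628 in FIPs and 593 in SMCs. Mertk averaged 762 in MLCs against 855, 442 and 786 in the same order.

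Some genes that macrophages share with other cells did stand higher in MLCs. Mrc1, the mannose receptor gene, averaged 109 ± 10.6 in MLCs and 38.0 ± 10.99 in APCs, and Cd14, the endotoxin co-receptor gene, 113 in MLCs and 23.2 in APCs. In the list of 12 monocyte and dendritic cell genes, H2-Aa, H2-Ab1 and Cd74, which code for class II antigen presentation, varied widely among the MLC libraries. H2-Aa was at 67.9, 407, 79.7 and 955 in MLCs replicates 1 to 4 and at most 101 in any other library. Csf1r too was highest in replicate 4 and next in replicate 2, within a narrower range of 2014 to 2449. The dendritic and monocyte genes Flt3, Itgax and Ccr2 averaged 1.70 or less in MLCs. The part of other cells in the Csf1r level was not tested.

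**Figure D3:**
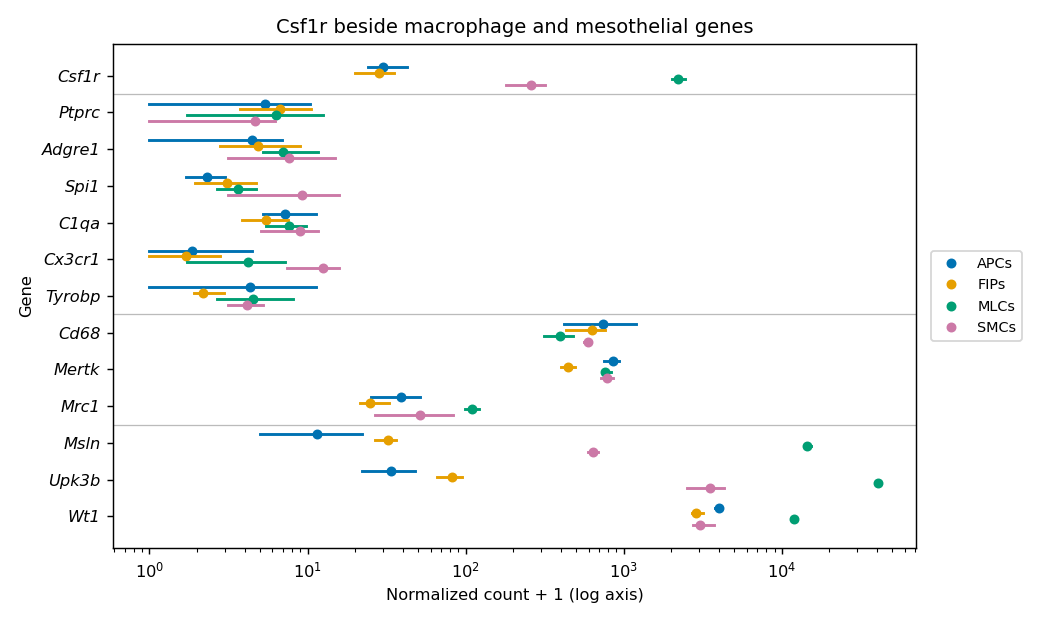
Normalized count plus 1 (log axis) of Csf1r, of macrophage genes (the first 6 are the 5 defining genes and Tyrobp, followed by Cd68, Mertk and Mrc1) and of 3 mesothelial markers. Points are means over 4 libraries and lines run from the lowest to the highest library, in 1 colour per population. In MLCs Csf1r is near 2210 while the 5 defining macrophage genes stay below 15.

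The SMC level of Csf1r lies between the extremes, and SMC libraries also held RNA of mesothelial marker genes at a fraction of the MLC level. Csf1r in SMCs was at 13.9%, 10.4%, 14.3% and 8.14% of the MLC mean in replicates 1 to 4. The 12 mesothelial markers were at between 2.42% and 33.1% of their own MLC means, with a median of 7.98%. Of these markers, 9 were below the mean share of Csf1r, 11.7%, and 3 above it. Msln, the mesothelin gene, was at 4.45% and Upk3b, a uroplakin gene, at 8.70%. The 3 markers above the share of Csf1r were Wt1, Nkain4 and Ezr. Wt1 was also high outside MLCs and SMCs, with means of 3996 in APCs, 2880 in FIPs and 3023 in SMCs. In the same order Nkain4 averaged 277, 183 and 1228, and Ezr 97.4, 141 and 2492. The summed mesothelial markers were 16837, 15412, 19204 and 13247 in SMCs replicates 1 to 4, the same order as Csf1r. The smooth muscle gene Acta2 was in that order too, at 5235, 4170, 5858 and 2885. In bulk RNA a few cells with much RNA and many cells with little cannot be told apart, and the part of mesothelial RNA in the SMC value was not tested.

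**Figure D4:**
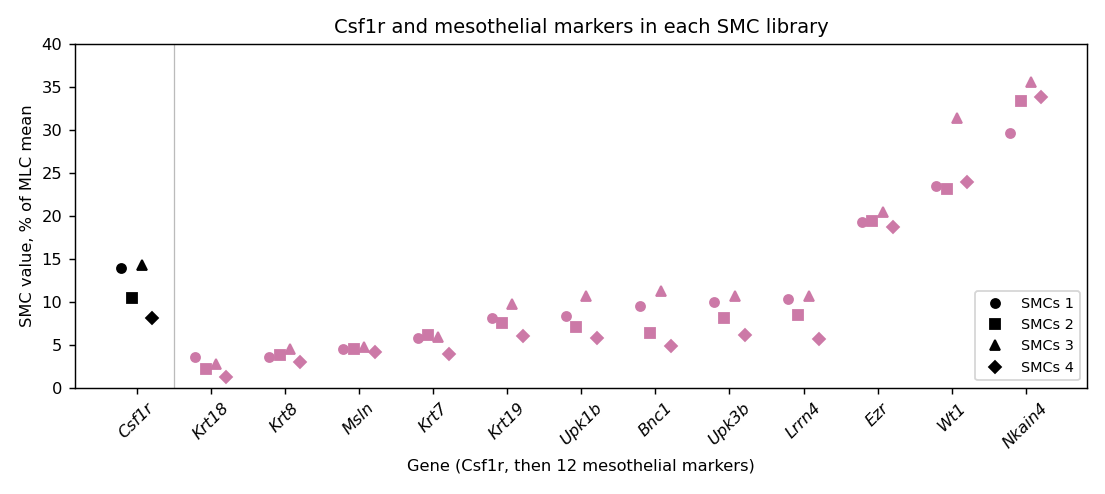
Value in each SMC library (symbols) as a percentage of the MLC mean, for Csf1r and for 12 mesothelial markers in ascending order. Csf1r, between 8.14% and 14.3%, lies above Msln, at 4.14% to 4.78%, and below Wt1, at 23.1% to 31.4%. Wt1 is also expressed in APCs and FIPs.

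Csf1r has close neighbours on its chromosome. Pdgfrb ends 20504 bases before Csf1r on the same strand, and had its lowest mean in MLCs, where Csf1r was highest. Like Csf1r, it was higher on average in SMCs than in FIPs, at 3787 against 2862, but its highest mean was in APCs, at 4717. On the other side lies Hmgxb3, on the opposite strand. Its nearer edge, where it ends, lies 137 bases beyond the end of Csf1r in the RefSeq annotation. In GENCODE, where Csf1r extends further, the 2 genes share 873 exon bases. Hmgxb3 was at 642 to 897 normalized counts in all 16 libraries and lowest in MLCs, at 673 ± 31.8. Whether reads were assigned by strand is not given in the sources used here, so reads in the shared bases may be counted to either gene or dropped.

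By the correlation of log2(value + 1) over the 16 libraries, among 11473 genes, those most like Csf1r were Acp5 (r = 0.997), C2 (r = 0.995), Tat (r = 0.994) and Ppl (r = 0.994). Acp5, coding for the tartrate-resistant acid phosphatase of osteoclasts and macrophages, averaged 13.99 normalized counts in APCs, 15.6 for FIPs, 1128 for MLCs and 143 for SMCs. C2, a complement component, averaged 683, 608, 18802 and 3135 in the same order. Ppl, the periplakin gene of epithelial cell junctions, averaged 115, 90.6, 13058 and 1277. These correlations are descriptions of 4 population levels and are not independent over libraries.

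Kitl, the gene of stem cell factor, lies on the plus strand at chr10:100015615-100100416 (GRCm38). It was expressed in all 16 libraries and was highest in MLCs, with 2201, 2115, 2121 and 2145 normalized counts. The SMC libraries held 1276, 1200, 1196 and 1013, the APC libraries 816, 1047, 807 and 1046, and the FIP libraries 926, 858, 937 and 886. The MLC libraries stood apart from all others, at 2.31 times the APC mean, 2.38 times the FIP mean and 1.83 times the SMC mean. APCs replicates 2 and 4 were inside the SMC range.

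Kitl was lower in APCs than in SMCs by -0.34 (SE 0.09, adjusted p = 0.00240 by limma) and lower in FIPs than in SMCs by -0.37 (SE 0.09, adjusted p = 0.00115 by limma), both short of a log2 fold change of 1 and so not called. APCs and FIPs differed by 0.03 (95% interval -0.15 to 0.21, adjusted p = 0.794 by limma). With libraries scaled to equal totals this difference was 0.28 (adjusted p = 0.0103 by limma). The genes most like Kitl over the 16 libraries were Cdh11 (r = 0.99), Lhpp (r = 0.98), Slitrk4 (r = 0.98) and Enpp4 (r = 0.98). Cdh11, a cadherin gene of mesenchymal cells, averaged 19360 in MLCs and 6921 in SMCs. A TATA motif lies 25 bases before the RefSeq start site used for the Kitl window. This start site lies inside the gene span given above, beyond its first base. The motif is shown in capitals (GRCm38.p6, plus strand, chr10:100015784-100015813), because Kitl was the only gene of the 3 with a window that held one.

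Kitl: gggagggagctgTATAAAaagcgctggcgg

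Kit, coding for the receptor, lies on the plus strand at chr5:75574987-75656722 (GRCm38), 376780 bases beyond Pdgfra and 276104 bases before Kdr, other tyrosine kinase genes. Its 250 bases before the first RefSeq start (GRCm38.p6, plus strand, chr5:75574737-75574986) held 1 GC box, in capitals, and no match to the other 3 motifs.

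Kit: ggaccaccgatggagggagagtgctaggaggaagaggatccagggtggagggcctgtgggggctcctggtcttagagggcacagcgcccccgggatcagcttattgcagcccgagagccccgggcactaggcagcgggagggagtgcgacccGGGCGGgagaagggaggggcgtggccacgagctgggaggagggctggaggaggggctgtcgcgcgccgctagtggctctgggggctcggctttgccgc

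Kit was near the floor of the data, from 8 to 79 reads per library. The MLC libraries held 46.1, 40.6, 56.1 and 69.5 normalized counts and the SMC libraries 66.3, 48.0, 42.7 and 52.1. The APC libraries held 30.4, 17.1, 19.3 and 15.6 and the FIP libraries 12.9, 12.9, 7.64 and 11.8. The MLC and SMC values overlapped and were all above the APC values, which in turn were all above the FIP values.

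Kit was called lower in APCs than in SMCs, by -1.33 (SE 0.25, adjusted p = 0.000219 by limma), and lower in FIPs than in SMCs, by -2.12 (SE 0.25, adjusted p = 9.1e-07 by limma). The first call was lost under quantile normalization, at -0.72. Between APCs and FIPs the difference was 0.79 (SE 0.25, 95% interval 0.26 to 1.33, adjusted p = 0.0176 by limma), under the size of a call. It reached 1.06 with edgeR on the recovered reads and 1.02 with libraries scaled to equal totals, and was called by both. Its adjusted p by limma was past 0.05 without APCs replicate 1, with a difference of 0.60 (adjusted p = 0.0709), and without FIPs replicate 3, with 0.63 (adjusted p = 0.0671). Pdgfra, on one side, averaged 471 in MLCs against 20555 or more in the others, and Kdr, on the other, averaged 85.7 in FIPs, 207 in APCs, 826 in SMCs and 2485 in MLCs. The means of Kdr thus had the same order as those of Kit, over a much wider range, and those of Pdgfra did not. Its closest genes by correlation were Inf2 (r = 0.97), Acacb (r = 0.97), Eno2 (r = 0.96) and Cyp4f17 (r = 0.96). For Il34 they were Zfp316 (r = 0.98), Ptprs (r = 0.97), Myo7a (r = 0.96) and Tnrc6c (r = 0.95), and for Csf1 Smurf2 (r = 0.97), Sav1 (r = 0.96), Soat1 (r = 0.96) and Thy1 (r = 0.96).

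Cells that carry KIT elsewhere were looked for by their markers. The defining mast cell genes Cpa3 and Ms4a2 summed to at most 10.7 normalized counts in any SMC library and to at most 1.76 in the others, and Ms4a2 was at 0 in FIPs, MLCs and SMCs. The whole mast cell list of 10 genes ran from 2432 to 2922 in SMCs and from 99.9 to 802 in the other populations. Gata2, a transcription factor gene not limited to mast cells, made up 2194 of this sum in SMCs on average. Hdc, also on this list, was at 121 to 172 in MLCs, 33.7 to 49.5 in SMCs and at most 30.8 in APCs and FIPs. Il1rl1, of the same list, averaged 362 in SMCs, 104 in APCs, 54.8 in MLCs and 33.9 in FIPs. Mcpt4, Cma1, Tpsb2, Tpsab1 and Fcer1a averaged 1.97 or less in every population. Of the melanocyte genes, Tyr and Dct averaged 3.05 or less in every population, while Mitf averaged from 74.8 in MLCs to 527 in FIPs. Pmel, a melanosome gene, averaged between 39.1 and 59.2 in each population, and Tyr, Dct and Pmel, the 3 defining genes, summed to between 31.1 and 74.7 in the 16 libraries. Sox10, a transcription factor gene of melanocytes and glia, averaged 29.95 in SMCs, with up to 52.1 in a library, and at most 1.77 in the others. The 8 melanocyte genes together ran from 538 to 646 in FIPs, 296 to 339 in APCs, 261 to 332 in SMCs and 114 to 137 in MLCs. Ano1, a channel gene of interstitial cells of Cajal, averaged 11495 in MLCs, 1389 in SMCs and 74.1 or less in APCs and FIPs. Prkcq, a kinase gene of the same list, averaged 31.1 in MLCs, 11.7 in SMCs and at most 1.19 in APCs and FIPs. Etv1, the transcription factor of those cells, had its lowest mean in MLCs, at 37.7, and Cd34, not limited to them, averaged 16061 or more in every population. The part of these cells in the Kit values was not tested.

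Counted together, 3 of the 5 genes were called lower in APCs than in SMCs and the same 3, Csf1r, Il34 and Kit, lower in FIPs than in SMCs, and none higher. Over all 15024 genes tested, 13.5% were called lower and 3.79% higher in APCs than in SMCs, and 13.3% lower and 4.6% higher in FIPs than in SMCs. These comparisons share the SMC libraries. The median log2 fold change of the 5 genes was -1.33 and -2.03, against -0.02 and -0.01 over all genes tested. Between APCs and FIPs none of the 5 was called by limma, where 5.22% of all genes were called higher and 5.2% lower. At an adjusted p under 0.05 by limma there were 2, Csf1 and Kit, both short of the size of a call, and edgeR called 1, Kit.

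The 4 pathway lists include other haematopoietic cytokines and receptors, which are not part of the 2 systems. In all, 72 of the 86 genes in the lists passed the filter and were tested. Of these, 7 were called higher and 6 lower in APCs than in FIPs, 7 and 9 in APCs than in SMCs, and 11 and 11 in FIPs than in SMCs. The share called was 18.1%, 22.2% and 30.6%, beside 10.4%, 17.2% and 17.9% of all genes. For the genes that relay the signal inside the cell, taken alone, it was 8.33%, 16.7% and 25%. The median log2 fold change of the 72 genes was -0.01, 0.04 and 0.17, beside -0.01, -0.02 and -0.01 over all genes tested. In MLCs the numbers were 14 higher and 19 lower against APCs, 15 and 16 against FIPs, and 14 and 15 against SMCs. Over all genes tested the calls in MLCs against APCs were 17.7% higher and 11.8% lower. They were 18.6% and 12.5% against FIPs, and 14.4% and 13.5% against SMCs.

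Genes that release these ligands from the cell surface, or that code for other known receptors of interleukin 34, included several with their highest level in MLCs. Of 9 such genes tested out of 10, 5 were called higher in MLCs than in APCs, 4 than in FIPs and 4 than in SMCs, and none lower. Trem2 passed the filter on low values only through MLCs, with 57.8 or more there, 5.11 to 14.9 in SMCs and at most 1.69 elsewhere. Ptprz1 passed it through MLCs and SMCs, with at most 5.04 in APCs and FIPs. The filter thus favoured calls of higher in MLCs for Trem2, and for Ptprz1 against APCs and FIPs. The counts include both genes. The share called was 55.6%, 44.4% and 44.4%, beside 29.6%, 31.1% and 27.9% of all genes in either direction. The 5 include Timp3, an inhibitor of release. The median log2 fold change of the list was 1.14, 0.70 and 0.54, beside 0.02, 0.02 and 0.04 over all genes tested.

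Ptprz1, a receptor tyrosine phosphatase that binds interleukin 34, was called higher in MLCs than in each of the other populations. Its mean was 708 ± 33.8 normalized counts in MLCs and 138 ± 49.5 in SMCs (SD, n = 4 each). The progenitors had almost none, with 2.44 ± 1.81 for APCs and 2.54 ± 1.85 for FIPs. Its difference between MLCs and SMCs was 2.43 (SE 0.38, adjusted p = 1.6e-05 by limma). Trem2, a lipid receptor of myeloid cells, followed at lower levels, with 64.8 ± 7.29 in MLCs, 11.6 ± 4.44 in SMCs and under 1 on average in APCs and FIPs. In SMCs, Ptprz1 was at 10.7% to 26.8% of its MLC mean and Trem2 at 7.89% to 23.1%, beside the mesothelial markers given above. Sdc1, the syndecan that also binds interleukin 34, was high throughout, with means from 366 in FIPs to 1046 in MLCs.

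Among the release genes, Rhbdf2, a partner of the sheddase ADAM17, averaged 575 ± 62.5 in MLCs, 122 ± 37.1 in SMCs, 17.7 ± 3.20 in FIPs and 61.5 ± 12.9 in APCs. Adam10, another sheddase gene, was called higher in MLCs than in APCs, by 1.14, and than in SMCs, by 1.08. Timp3, the inhibitor of both sheddases, was called lower in APCs than in FIPs, SMCs and MLCs, with a mean of 1369 in APCs against 4964 or more elsewhere. Adam17 itself averaged from 1322 in MLCs to 2151 in FIPs and was called in no pair.

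Of the genes that relay the signal inside the cell, 36 of 39 were tested. In MLCs, 6 were called higher and 7 lower than in APCs, 6 and 7 than in FIPs, and 7 and 6 than in SMCs. That is 36.1% called in each pair, beside 29.6%, 31.1% and 27.9% over all genes. The median log2 fold change was -0.09, -0.10 and -0.09, beside 0.02, 0.02 and 0.04 over all genes tested. Pik3cb, coding for a catalytic subunit of phosphoinositide 3-kinase, averaged 1066 ± 62.7 in MLCs, 111 ± 19.2 in SMCs, 16.3 ± 4.63 in FIPs and 26.4 ± 9.65 in APCs, and was called higher in MLCs in all 3 pairs. Fyn, a Src family kinase, was the reverse, at 330 ± 35.6 in MLCs, 2562 ± 210 in SMCs, 6620 ± 286 in FIPs and 3467 ± 163 in APCs. Genes that restrain the signal went both ways. Spred1 and Socs1 averaged 516 and 306 in MLCs, below the means of 1936 and 1079 in APCs. Dusp6 and Ptpn6, phosphatase genes named after their values were seen, averaged 1025 and 78.8 in MLCs against 433 and 16.3 in APCs, and both were called higher in MLCs in all 3 pairs. Spry2 averaged 2233 in MLCs and 1568 in APCs and was not called in that pair. Pik3cd, another catalytic subunit, averaged 436 ± 80.5 in SMCs, 268 ± 17.4 in MLCs and under 100 in APCs and FIPs.

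**Figure D5:**
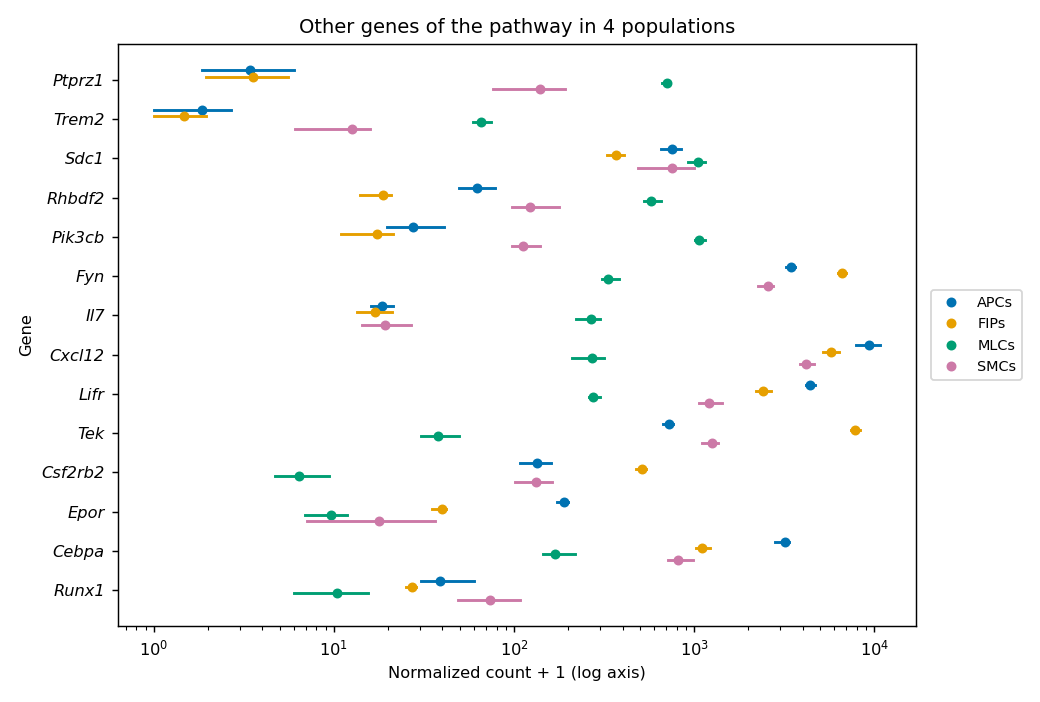
Normalized count plus 1 (log axis) of 14 genes of the pathway lists, chosen as examples. Points are means over 4 libraries and lines run from the lowest to the highest library, in 1 colour per population. Ptprz1, Trem2, Rhbdf2, Pik3cb and Il7 are highest in MLCs, and Fyn, Cxcl12, Lifr, Tek and Csf2rb2 are lowest there.

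Of the other haematopoietic cytokines and receptors, 19 of 28 were tested. In MLCs, 8 were called lower and 3 higher than in APCs, 7 lower and 5 higher than in FIPs, and 6 lower and 3 higher than in SMCs. Over all genes 11.8%, 12.5% and 13.5% were called lower and 17.7%, 18.6% and 14.4% higher in these pairs. The median log2 fold change of the list was 0.0021, -0.27 and -0.61, beside 0.02, 0.02 and 0.04 over all genes tested. Cxcl12, a stromal chemokine that retains blood stem cells, averaged 271 ± 48.7 in MLCs, 4163 ± 323 in SMCs, 5720 ± 502 in FIPs and 9337 ± 1198 in APCs. Lifr, the receptor of leukaemia inhibitory factor, averaged 273 in MLCs and from 1205 to 4370 in the others. Tek, the angiopoietin receptor, was at 7827 ± 401 in FIPs and 36.7 ± 8.16 in MLCs. Il7, a lymphocyte growth factor named after its values were seen, went the other way, at 266 ± 35.4 in MLCs and 18.2 or less on average in the other 3.

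The receptors of other myeloid growth factors were uneven. Csf2rb2, a beta chain of the interleukin 3 receptor, averaged 515 ± 29.2 in FIPs, 133 ± 21.3 in APCs, 131 ± 29.6 in SMCs and 5.39 ± 2.07 in MLCs. Epor, the erythropoietin receptor, was highest in APCs, at 189 ± 12.1, against 38.7 ± 3.17 in FIPs, 16.7 ± 13.2 in SMCs and 8.58 ± 2.15 in MLCs. The ligands Csf2, Il3, Il5 and Epo and the receptors Csf3r, Flt3, Il5ra and Il7r did not pass the filter on low values, and none of them was above 21.1 in any library.

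Of the 9 transcription factors known to act on Csf1r in macrophages, 8 were tested and none was called higher in MLCs. Compared with APCs, 4 were called lower, Cebpa, Ets1, Runx1 and Irf8, though Ets1 missed the size of a call with libraries scaled to equal totals and without APCs replicate 4, at -0.99 in both. Against FIPs the number was 2 and against SMCs 3. Over all genes 11.8%, 12.5% and 13.5% were called lower in these pairs, and the share called in either direction against FIPs, 25% of the list, was below the 31.1% of all genes. The median log2 fold change of the list was -0.81, -0.31 and -0.53, beside 0.02, 0.02 and 0.04 over all genes tested. Spi1, coding for PU.1, did not pass the filter and was at most 14.7 in any library. Cebpa, a factor of myeloid cells and adipocytes, averaged 167 ± 35.0 in MLCs against 3189 ± 246 in APCs, 1110 ± 98.9 in FIPs and 811 ± 121 in SMCs. Runx1 averaged 9.34 ± 4.05 in MLCs and 72.2 ± 24.9 in SMCs, the populations with the most Csf1r.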

How the data were processed

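RNA of 16 libraries was analysed from the deposited table of normalized counts, a signal that the authors made by dividing the reads of each gene by a factor for its library. DESeq2 1.6.3, featureCounts 1.4.6, HISAT2 2.0.1 and Trim Galore 0.4.1, and the builds mm10 and GRCm38, are named in the submitters' processing notes; for the strand setting and annotation, the sources used here give nothing. SMC columns are headed SMLCs in the table and were matched to the SMC titles by number. Whole reads were recovered from the steps of the values, and 100% came out whole within 0.01.

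Genes with a value of at least 10 in at least 4 libraries, 15024 in all, were tested with limma 3.58.1 in R 4.3.3 (trend, 4 populations in 1 model) on log2(value + 1), which understates the fold changes of low genes. Tests were two-sided, with Benjamini-Hochberg adjustment within each of 6 pairs, and a call needed a log2 fold change of 1 or more in either direction beside an adjusted p under 0.05. All 5 genes passed the filter. They were tested in the 3 pairs without MLCs only. The 5 genes and all gene lists were chosen with earlier results of these data known. Of each pathway list the text names from the up to 4 called genes with the smallest adjusted p per pair; likeness was ranked among genes with a symbol and a mean of at least 100 in a population. The fit was tested on simulated data first. Alternatives were other pseudocounts (0.1 and 8), no filter, a filter at 50, equal totals, quantile normalization, a fit of the 2 populations alone, a replicate block and each library left out. Another 2 were chosen after seeing the data: the 2 shallowest libraries left out, and edgeR 4.0.16 on recovered reads of 14 libraries, since the steps of FIPs replicate 1 and APCs replicate 2 are too near 1. Gene coordinates, neighbours and promoter letters are RefSeq (GRCm38.p6), strands, exon lengths and shared exon bases GENCODE M21 (GRCm38). RefSeq promoters had entries for 3 of the 5 genes. Some genes of the lists are counted but not reported here by name.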

Additional observations from a re-analysis of the deposited data

How the results depend on the processing

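The 15 tested differences of the 5 genes were recomputed under 26 alternatives. Of 390 values, 372 kept their direction and their side of the threshold, 15 changed sign, 2 became calls and 1 call was lost. All 15 sign changes fell on differences of at most 0.07 in size. Csf1r between APCs and FIPs was -0.037 under quantile normalization and -0.11 without the 2 shallowest libraries. Kitl in the same pair was -0.028 without these libraries and -0.0039 with edgeR on recovered reads. With libraries scaled to equal totals Kitl was higher in APCs than in FIPs by 0.28 (adjusted p = 0.0103 by limma), short of the size of a call. With each library left out in turn, APCs against FIPs ran from -0.11 to 0.19 for Csf1r, -0.24 to 0.50 for Il34 and -0.029 to 0.097 for Kitl, and Csf1 in APCs against SMCs from -0.071 to 0.17. The number of the 5 genes called between APCs and FIPs was 0 and became 1, Kit, with libraries scaled to equal totals and with edgeR; the cause was not tested. The replicate numbers of the labels are shared across populations, but the labels do not say what a number stands for. Deviations correlated above 0.1 in 6 of 24 same-numbered pairs of libraries, against 1 of 72 other-numbered pairs. The medians were 0.06 and -0.02, and 13 of 16 libraries correlated best with their own number. Libraries of 1 number thus shared some deviation. Its source was not tested, and the main fit left the numbers out. With the replicate block, 0, 3 and 3 of the 5 genes were called in the 3 pairs, as without it, and 1567 genes in all between APCs and FIPs against 1566.

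Scaling to equal totals moved the median of all genes by 0.24 in APCs against FIPs, -0.22 in FIPs against SMCs, 0.33 in MLCs against FIPs and 0.11 in MLCs against SMCs, and quantile normalization by -0.13 and -0.12 in MLCs against APCs and FIPs. Among called genes the share higher in the first population moved from 50.1% to 67.5% in APCs against FIPs and from 59.8% to 71.4% in MLCs against FIPs with equal totals, and from 22.0% to 44.5% in APCs against SMCs and from 25.7% to 45.6% in FIPs against SMCs with quantile normalization. Of the values of 82 named pathway differences, 2104 kept their call, 23 lost it and none changed sign. Depth limits Il34 and Kit most, which rest on as few as 3 and 8 reads in a library.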
